A study of Homo sapiens with 9 samples.

Results

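The genes described here are 10 members of the Notch pathway, taken by their gene symbols out of the 27111 genes counted in the RNA-seq libraries. They are the receptors NOTCH1, NOTCH2, NOTCH3 and NOTCH4, the ligands JAG1, JAG2, DLL1 and DLL4, and the target genes HES1 and HEY1. All 10 were found, and 9 of them were among the 17108 genes with enough counts for a test. DLL1 was not. The libraries came from PC3 cells, an established line from a bone metastasis of prostate cancer, grown as multicellular tumor spheroids (MTSs) in low attachment plates with Matrigel. Empty cells carried the empty pSIN lentiviral vector. NF-YAl and NF-YAs cells carried the same vector with the long or the short splice isoform of NF-YA, the DNA-contacting subunit of the CCAAT-binding factor NF-Y, in its murine sequence. All lines were selected with puromycin, and all went through the same spheroid culture. Each line was sequenced in 3 libraries, each from pooled MTSs, lettered A, B and C for Empty and NF-YAs and A, B and D for NF-YAl. The sources used here describe 1 transduced line per construct, so the isoform and the line that carries it cannot be told apart.

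Notch receptors and their ligands are both membrane proteins, so the signal passes between touching cells. A bound ligand pulls on the receptor, ADAM10 and then the gamma-secretase complex cut it, and the freed intracellular domain joins RBPJ and a Mastermind protein on DNA. HES and HEY genes, which encode transcriptional repressors, are the best known targets. In the prostate the pathway takes part in the growth and differentiation of basal and luminal cells.

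The levels of the transgene's gene were checked first. NFYA, which encodes NF-YA, was at 89.2, 96.7 and 89.4 CPM (TMM-scaled counts relative to the library total) in the Empty libraries, at 287, 383 and 353 CPM in NF-YAl and at 264, 263 and 254 CPM in NF-YAs, so that every library of both overexpressing lines lay above every Empty library. Libraries held 25033571 to 27163976 expected counts in total in Empty, 18092007 to 23985635 in NF-YAl and 18076979 to 21533481 in NF-YAs. Every Empty library was thus deeper than every library of both lines. The 6 epithelial and carcinoma line markers fixed for the check were detected in all groups, with a summed level of 1135 to 2028 TPM. KRT8, KRT18, KRT19 and VIM made up nearly all of that sum. EPCAM, at 0.61 to 6.68 TPM, and CDH1, at 0.52 to 3.22 TPM, were low in all libraries. KLK3, a luminal prostate marker, was at 0 in all 9 libraries. TPM is a level per transcript length, and it was used to compare genes with each other. CPM, scaled by TMM, was used to compare libraries, apart from the cell type markers, which are given in TPM only.

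Promoter sequences are shown for 3 members because NF-Y binds the CCAAT box and because these genes stand for the patterns described below. HES1 was higher in both lines, JAG2 moved in opposite directions in them, and DLL4 was the other member with a CCAAT match. Each window runs from 250 bases before to 50 bases after the annotated start of transcription, read 5′ to 3′ on the gene's own strand, from RefSeq on GRCh38.p14. Capitals mark CCAAT or its reverse complement ATTGG.
HES1, plus strand, chr3:194135898-194136197: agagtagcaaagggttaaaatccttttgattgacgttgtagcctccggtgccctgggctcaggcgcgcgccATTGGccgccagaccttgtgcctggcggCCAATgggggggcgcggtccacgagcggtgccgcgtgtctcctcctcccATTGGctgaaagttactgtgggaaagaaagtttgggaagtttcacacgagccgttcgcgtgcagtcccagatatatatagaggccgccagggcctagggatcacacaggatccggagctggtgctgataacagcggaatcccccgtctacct
DLL4, plus strand, chr15:40929090-40929389: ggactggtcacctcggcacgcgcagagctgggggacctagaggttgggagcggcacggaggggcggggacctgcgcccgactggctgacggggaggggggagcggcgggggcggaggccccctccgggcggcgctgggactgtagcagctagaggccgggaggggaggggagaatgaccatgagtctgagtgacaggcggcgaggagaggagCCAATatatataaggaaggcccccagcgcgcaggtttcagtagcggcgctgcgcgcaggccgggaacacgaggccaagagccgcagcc
JAG2, minus strand, chr14:105168727-105169026: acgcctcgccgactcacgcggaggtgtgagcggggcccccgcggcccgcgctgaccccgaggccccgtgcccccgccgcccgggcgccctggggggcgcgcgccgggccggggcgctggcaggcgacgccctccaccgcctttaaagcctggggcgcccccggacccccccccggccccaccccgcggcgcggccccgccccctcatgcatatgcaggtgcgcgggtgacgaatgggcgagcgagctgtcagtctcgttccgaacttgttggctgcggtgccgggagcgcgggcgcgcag
The table of promoters held 8 of the 10 members. HES1 had 3 matches, which began 179, 151 and 102 bases before the start, and DLL4 had 1 match, 38 bases before the start. The other 6 windows, those of JAG1, JAG2 and the 4 receptors, had none. Of 35116 promoters in the table, 34.6% held at least 1 match and 3.26% held at least 3. The letters TGGGAA, the core of the RBPJ site, were also searched on both strands and occurred only in HES1 among these windows, at 84 and 70 bases before the start. They overlapped no CCAAT match, and 24.0% of all promoters held them. These matches describe letters in a window and say nothing of binding in these cells.

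In MTSs of Empty cells, JAG1 was the highest of the 10 genes, at 68.6 ± 12.0 TPM (mean ± SD, n = 3). HEY1 followed at 49.8 ± 4.04 TPM. HES1, at 19.6 ± 4.11 TPM, and NOTCH2, at 17.3 ± 2.18 TPM, overlapped between libraries. NOTCH1 was at 8.25 ± 1.17 TPM. JAG2 (1.97 ± 0.332 TPM) and DLL4 (1.49 ± 0.427 TPM) overlapped each other below it. NOTCH4 (0.440 ± 0.0794 TPM), NOTCH3 (0.217 ± 0.0907 TPM) and DLL1 (0.0567 ± 0.0208 TPM) were the lowest, each separate from the next in all 3 libraries. The transcripts of this control line were therefore mostly those of 1 ligand, 2 receptors and both targets. In NF-YAl, the libraries of JAG1, HEY1, HES1 and NOTCH2 overlapped from each to the next, and so did those of NOTCH1 and JAG2 and those of DLL4 and NOTCH3. Within each NF-YAl library, however, the order JAG1, HEY1, HES1, NOTCH2, NOTCH1, JAG2 held, with HEY1 and HES1 nearly equal in replicate A (42.5 and 42.4 TPM). DLL4 and NOTCH3 changed places between the libraries. In NF-YAs every gene was separate from the next in the order JAG1, HEY1, HES1, NOTCH2, NOTCH1, DLL4, JAG2, NOTCH3, NOTCH4, DLL1.

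**Figure D1:**
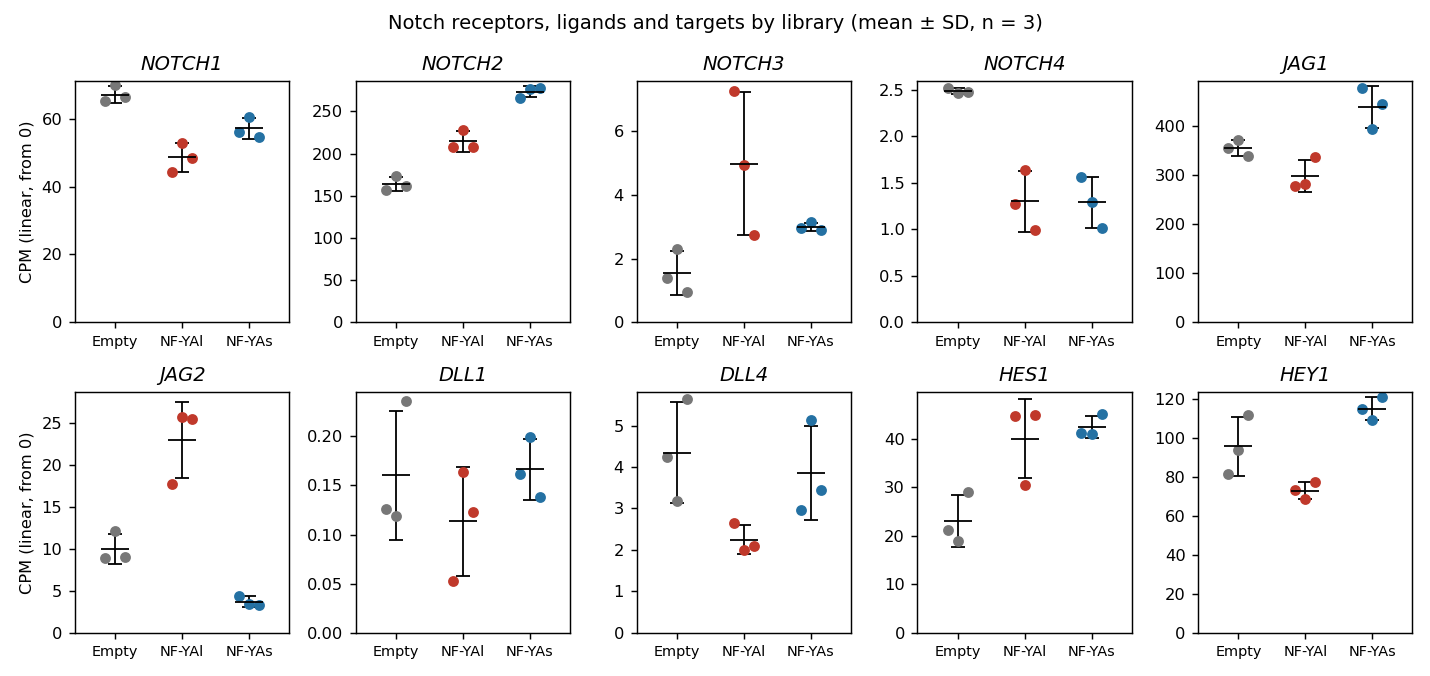
TMM-scaled CPM (linear axes from 0) of the 10 genes in each library, 1 dot per library, with the mean and SD of the 3 libraries of Empty, NF-YAl and NF-YAs. JAG2 lay at 17.7 to 25.6 CPM in NF-YAl, 8.85 to 12.1 in Empty and 3.27 to 4.42 in NF-YAs, and NOTCH2 and HES1 were higher than in Empty in every library of both lines.

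A gene was called a differentially expressed gene (DEG) where its |log2FC| was above 1 and its p, after Benjamini-Hochberg adjustment over all tested genes, was under 0.01 in the quasi-likelihood test of edgeR. Every adjusted p below comes from that test, and SE is the standard error of the log2 fold change (log2FC). In NF-YAl against Empty MTSs, 2 members were DEGs, NOTCH3 and JAG2, both higher. Of all tested genes 8.27% were DEGs in this comparison, and 4.76% were DEGs in the higher direction. By the adjusted p alone 5 members passed, where 19.6% of all tested genes did. NOTCH2 and HES1 joined them in the higher direction (10% of all tested genes), and NOTCH1 was lower (9.54%). All 9 tested members had no overlap between the NF-YAl and the Empty libraries in CPM, against 42.4% of all tested genes, and DLL1 overlapped. The median log2FC of the 9 was -0.25, and that of all tested genes was 0.01.

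In NF-YAs against Empty MTSs, 1 member was a DEG, JAG2, and it was lower, where 9.34% of all tested genes were DEGs and 3.90% were DEGs in the lower direction. By the adjusted p alone 3 members passed, against 22.6% of all tested genes. NOTCH2 and HES1 were higher (12.1% of all tested genes) and JAG2 was lower (10.5%). The NF-YAs and Empty libraries did not overlap for 7 members, against 56.4% of all tested genes. The median log2FC of the 9 was 0.27, beside 0.00 for all tested genes (-0.00262 unrounded).

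In NF-YAl against NF-YAs MTSs, JAG2 was again the 1 DEG, higher in NF-YAl, where 4.61% of all tested genes were DEGs and 1.74% in the higher direction. HEY1 and JAG1, both lower in NF-YAl, also passed the adjusted p alone, which made 3 members against 11% of all tested genes. Of all tested genes 4.7% passed it in the higher and 6.25% in the lower direction. The libraries did not overlap for 6 members, against 39.5% of all tested genes, and the median log2FC was -0.23, beside 0.02 over all tested genes. The comparisons of NF-YAl and NF-YAs with Empty share the 3 Empty libraries, so their values are set side by side here and are not independent of each other.

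**Figure D2:**
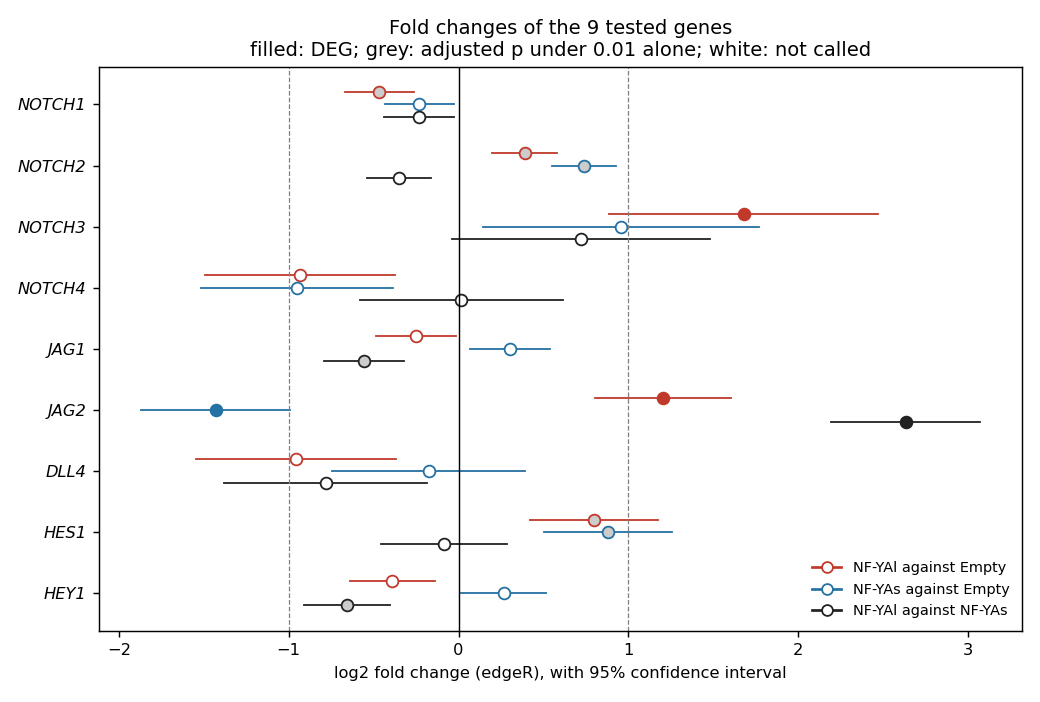
The log2FC of the 9 tested genes with its 95% confidence interval, in red for NF-YAl against Empty, in blue for NF-YAs against Empty and in black for NF-YAl against NF-YAs. Filled symbols are DEGs, grey ones passed the adjusted p alone and white ones were not called; JAG2 is filled in all 3 comparisons, at 1.20, -1.43 and 2.63.

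Among the receptors, NOTCH2 carried most of the transcripts and was higher in both lines. It was at 157, 173 and 161 CPM in Empty, 207, 228 and 207 CPM in NF-YAl and 266, 277 and 277 CPM in NF-YAs. The groups did not overlap, with Empty lowest and NF-YAs highest. The log2FC over Empty was 0.39 in NF-YAl (adjusted p = 0.00476, SE 0.0866) and 0.74 in NF-YAs (adjusted p = 5.26e-05, SE 0.0869), both below the fold limit of a DEG. Set directly against NF-YAs, the log2FC of NF-YAl was -0.35 (adjusted p = 0.0126, SE 0.0865) and was not called. The call in NF-YAl was lost without Empty replicate A (adjusted p = 0.0181), B (0.0102) or C (0.0286) or without NF-YAl replicate B (0.0216). NOTCH2 lies on the minus strand of chromosome 1 of GRCh37, from 120454176 to 120643366, and has a truncated copy on the same chromosome, NOTCH2NL, with which its reads are shared out by the authors' software. NOTCH2NL was at 153 to 178 CPM in Empty, 126 to 137 in NF-YAl, with NF-YAs at 118 to 125, the opposite direction to NOTCH2. Its log2FC was -0.34 in NF-YAl (adjusted p = 0.0119, SE 0.0893) and -0.45 in NF-YAs (adjusted p = 0.00210, SE 0.0895), so the split between both genes is uncertain and its part in the values of NOTCH2 was not tested.

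NOTCH1, the receptor with the next highest level, was at 65.3, 70.0 and 66.5 CPM in Empty and at 44.5, 53.0 and 48.6 CPM in NF-YAl. Every NF-YAl library lay below every Empty library, and the log2FC was -0.47 (adjusted p = 0.00258, SE 0.0938). That call was lost without Empty replicate B (adjusted p = 0.0142) or C (0.0121). In NF-YAs the values were 56.3, 60.8 and 54.9 CPM, also below all Empty libraries, but the log2FC of -0.23 (SE 0.0936) had an adjusted p of 0.0735. Within a library, levels of the receptors can be set against each other without regard to how the library was scaled. NOTCH2 made up 66.0 ± 0.395% of the summed receptor TPM in Empty, 76.5 ± 0.573% in NF-YAl, with NF-YAs at 79.2 ± 0.751% (SD, n = 3). NOTCH1 made up 31.5 ± 0.438%, 20.3 ± 1.04% and 19.0 ± 0.650%. NOTCH2 TPM per NOTCH1 TPM thus went from 2.06 to 2.13 in the Empty libraries to 3.63 to 4.0 in NF-YAl and 4.0 to 4.36 in NF-YAs, with no overlap between Empty and either line. These shares and this ratio carry the uncertain split of reads between NOTCH2 and NOTCH2NL, whose part in them was not tested.

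NOTCH3, a receptor best known from smooth muscle and pericytes but also present in epithelial tumors, was at 1.38, 2.30 and 0.945 CPM in Empty, which were 33, 58 and 24 counts. In NF-YAl it was at 7.27, 4.95 and 2.75 CPM, from 137, 121 and 67 counts. Every NF-YAl library lay above every Empty library, but the NF-YAl libraries were themselves 2.75 to 7.27 CPM apart, with replicate A highest and replicate D lowest. The log2FC was 1.68 (adjusted p = 0.00402, 95% confidence interval 0.89 to 2.47, SE 0.364). The call was lost without Empty replicate A (adjusted p = 0.0195), Empty replicate C (0.0216) or NF-YAl replicate B (0.0130), with log2FC between 1.42 and 1.68 in these fits. In NF-YAs the libraries were close together at 2.96, 3.14 and 2.90 CPM. They lay above all Empty libraries, and their log2FC of 0.95 (adjusted p = 0.0649, SE 0.373) was not called. NOTCH3 lies on the minus strand of chromosome 19 of GRCh37, from 15269849 to 15311806, with no overlapping gene in the annotation. The summed level of the 7 fibroblast and mural markers was higher in every library of both lines than in Empty. It was 6.0 to 9.89 TPM in Empty, 17.3 to 39.5 TPM in NF-YAl and 24.7 to 32.2 TPM in NF-YAs. Of these, CSPG4 and MCAM, named after their values were seen, were higher in every library of both lines, CSPG4 at 1.45 to 1.95, 4.05 to 5.67 and 9.20 to 10.7 TPM and MCAM at 0.94 to 1.69, 5.88 to 24.7 and 10.3 to 15.5 TPM. Within NF-YAl, MCAM was lowest in replicate A (5.88 TPM) and highest in replicate D (24.7 TPM), the reverse of NOTCH3. ACTA2 was also higher in every library of both lines, at 0.17 to 0.24, 0.54 to 0.71 and 0.52 to 0.92 TPM. RGS5 overlapped between Empty and both lines, at 3.31 to 5.93, 3.91 to 7.94 and 3.39 to 4.69 TPM. PDGFRB reached at most 0.20 TPM, and the fibroblast markers DCN and LUM at most 0.09 and 0.23 TPM. The part of these markers in the values of NOTCH3 was not tested. NOTCH3 made up 0.822% of receptor TPM in Empty, 2.41% in NF-YAl, with NF-YAs at 1.16% on average.

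NOTCH4, known mainly from endothelium, was low throughout. It was at 2.52, 2.46 and 2.48 CPM in Empty, 1.27, 1.64 and 0.986 CPM in NF-YAl and 1.56, 1.29 and 1.01 CPM in NF-YAs. All libraries of both lines lay below the Empty libraries. The log2FC over Empty was -0.93 in NF-YAl (adjusted p = 0.0151, SE 0.256) and -0.95 in NF-YAs (adjusted p = 0.0131, SE 0.260), past neither limit, and both lines differed from each other by 0.02 (95% confidence interval -0.58 to 0.61). GPSM3 overlaps NOTCH4 on the same strand, so the reads of both are hard to separate there. Of the 10 endothelial markers, the summed level was 13.2 to 18.6 TPM in Empty, 90.6 to 167 TPM in NF-YAl and 53.7 to 71.7 TPM in NF-YAs, in the opposite direction to NOTCH4. The gene that moved the sum most was KDR, at 5.45 to 6.40 TPM in Empty, 79.8 to 149 TPM in NF-YAl and 38.0 to 56.5 TPM in NF-YAs. In TPM, ROBO4 was also higher in every library of both lines, at 4.74 to 8.32 TPM in Empty, 8.90 to 14.6 TPM in NF-YAl and 12.2 to 13.5 TPM in NF-YAs. TPM shifted the median log2FC of all genes upward (0.29 in NF-YAl and 0.17 in NF-YAs with 0.1 added), and ROBO4 was not compared in CPM. PECAM1 was at 1.43 to 1.72, 1.19 to 2.74 and 0.46 to 0.62 TPM, and VWF was at 0.75 to 1.06, 0.11 and 0.86 to 0.93 TPM in Empty, NF-YAl and NF-YAs. These 4 markers are named after their values were seen. The endothelial genes ERG and EMCN had at most 3 counts in any library. CDH5 and CLDN5, which define endothelial cells, reached at most 0.12 and 0.21 TPM. The part of these markers in the values of NOTCH4 was not tested. In such bulk libraries, fewer cells that express a gene and less RNA per cell cannot be told apart.

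Among the ligands, JAG2 gave the clearest contrast between the isoforms. JAG2 encodes a Serrate-type ligand that binds Notch receptors on neighbouring cells. It was at 8.85, 12.1 and 8.97 CPM in Empty, from 211, 304 and 228 counts. In NF-YAl it was at 17.7, 25.6 and 25.5 CPM, from 334, 626 and 620 counts, and in NF-YAs at 4.42, 3.43 and 3.27 CPM, from 82, 69 and 71 counts. The 3 groups did not overlap, with Empty between NF-YAs and NF-YAl. The log2FC over Empty was 1.20 in NF-YAl (2.30-fold higher, adjusted p = 0.000397, SE 0.184) and -1.43 in NF-YAs (2.69-fold lower, adjusted p = 0.000192, SE 0.202). Between the lines it was 2.63 (6.20-fold higher in NF-YAl, adjusted p = 1.32e-05, 95% confidence interval 2.19 to 3.07, SE 0.202). JAG2 stayed a DEG in all 3 comparisons when any 1 library was left out. In NF-YAs against Empty the call was lost on TPM, which shifts the log2FC of all genes, with adjusted p = 0.0181 by limma on log2(TPM + 0.1), and was kept when each library was centred on its median (-1.32, adjusted p = 0.000658 by limma). JAG2 lies on the minus strand of chromosome 14 of GRCh37, from 105607319 to 105635161.

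JAG1, the other Serrate-type ligand, was the most abundant member in every group. It was at 356, 372 and 338 CPM in Empty, 278, 282 and 337 CPM in NF-YAl and 478, 394 and 445 CPM in NF-YAs. NF-YAl lay below Empty and NF-YAs above it, with narrow gaps. The log2FC over Empty was -0.25 in NF-YAl (adjusted p = 0.0985, SE 0.108) and 0.31 in NF-YAs (adjusted p = 0.0447, SE 0.108), and neither was called. Set directly against NF-YAs, the log2FC of NF-YAl was -0.56 (adjusted p = 0.00362, SE 0.108), 1.47-fold lower in NF-YAl. That call was lost without NF-YAl replicate B (adjusted p = 0.0165) or NF-YAs replicate A (0.0198) or C (0.02). JAG1 and JAG2 thus ran in opposite directions between the lines. JAG2 was 2.59 to 3.36 TPM per 100 JAG1 TPM in Empty, 6.60 to 9.41 in NF-YAl, with NF-YAs at 0.766 to 0.955, 3 ranges that did not overlap. JAG1 made up 95.1 ± 0.508% of ligand TPM in Empty, 91.4 ± 1.05% in NF-YAl, with NF-YAs at 97.5 ± 0.634% (SD, n = 3).

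DLL4, a Delta-type ligand known from endothelial tip cells, was at 4.24, 3.18 and 5.63 CPM in Empty, 2.65, 2.0 and 2.09 CPM in NF-YAl and 2.96, 5.13 and 3.46 CPM in NF-YAs. NF-YAl lay below all Empty libraries, while NF-YAs overlapped them. The log2FC was -0.96 in NF-YAl (adjusted p = 0.0176, SE 0.271) and -0.17 in NF-YAs (adjusted p = 0.640, SE 0.261), and neither was called. The endothelial marker sum given beside NOTCH4 was higher in both lines, and its part in these values was not tested. DLL1, the other Delta-type ligand, had 1 to 6 counts in every library and could not be compared at this depth. FAM120B overlaps it on the opposite strand, and the use of strand in the counting is not given in the sources used here.

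HES1 and HEY1, the target genes, did not follow each other. HES1 was at 21.2, 18.9 and 29.0 CPM in Empty, 44.6, 30.5 and 44.8 CPM in NF-YAl and 41.3, 41.0 and 45.1 CPM in NF-YAs. Every library of both lines lay above every Empty library, with Empty replicate C (29.0 CPM) just below NF-YAl replicate B (30.5 CPM). The log2FC over Empty was 0.79 in NF-YAl (1.73-fold, adjusted p = 0.00412, SE 0.173) and 0.88 in NF-YAs (1.84-fold, adjusted p = 0.00192, SE 0.173), below the fold limit of a DEG. The lines differed from each other by -0.09 (95% confidence interval -0.46 to 0.28, adjusted p = 0.745). The adjusted p rose above 0.01 in NF-YAl without Empty replicate A (0.0209) or B (0.0237). In NF-YAs it did so without Empty replicate A (0.0118) or B (0.0115) or NF-YAs replicate C (0.0103), and without Empty replicate C HES1 became a DEG there. In NF-YAl it was a DEG on log2(TPM + 0.1), a fit that shifts all genes (1.10, adjusted p = 0.00986 by limma), and not when each library was centred on its median (0.80, adjusted p = 0.00660 by limma). HES1 occupies positions 193853937 to 193856521 of chromosome 3 in GRCh37, plus strand, and its promoter is the one shown above with 3 CCAAT matches.

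HEY1 was at 81.5, 93.7 and 112 CPM in Empty, 73.1, 68.5 and 77.5 CPM in NF-YAl and 115, 109 and 121 CPM in NF-YAs. NF-YAl lay below all Empty and NF-YAs libraries, while NF-YAs overlapped Empty at its highest library. The log2FC over Empty was -0.39 in NF-YAl (adjusted p = 0.0223, SE 0.116) and 0.27 in NF-YAs (adjusted p = 0.0927, SE 0.115), and neither was called. Set directly against NF-YAs, the log2FC of NF-YAl was -0.66 (1.58-fold lower in NF-YAl, adjusted p = 0.00204, SE 0.116), a call that was lost without NF-YAl replicate B (adjusted p = 0.0104) or NF-YAs replicate C (0.0140). Within a library, HES1 TPM per HEY1 TPM was 0.329 to 0.424 in Empty, 0.730 to 0.998 in NF-YAl, with NF-YAs at 0.588 to 0.615. The 3 ranges did not overlap, and the ratio was highest in NF-YAl.

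Transcript shares were compared for the members with more than 1 well covered transcript, NOTCH2, JAG2 and HEY1, by a two-sided exact permutation test over libraries, which cannot go below p = 0.1 with 3 against 3. The 11466 nt transcript of NOTCH2 took 90.2 ± 1.04% of its TPM in Empty, 91.7 ± 1.80% in NF-YAl, with NF-YAs at 88.6 ± 1.33% (SD, n = 3). The exact p was 0.4 and 0.3 against Empty and 0.1 between the lines. The rest was a 4311 nt transcript. For JAG2, the 5835 nt transcript took 68.4 ± 32.6% in Empty, 65.6 ± 10.7% in NF-YAl, with NF-YAs at 54.5 ± 11.3%, with the 5721 nt transcript as the rest and exact p values of 0.9, 0.5 and 0.3. The Empty libraries ran from 34.9 to 100% here, so no shift between both JAG2 transcripts was detectable. For HEY1, the 2293 nt transcript took 83.7 ± 3.41%, 80.7 ± 2.23% and 81.7 ± 1.42%, with exact p values of 0.4, 0.6 and 0.7.

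The rest of the pathway was described by 75 genes in lists by role, 69 of them tested. In NF-YAl against Empty MTSs 6 were DEGs in the higher direction and 2 in the lower, 8.70% and 2.90% of those tested, where 4.76% and 3.50% of all tested genes were. In NF-YAs against Empty MTSs 6 were higher and 1 lower, 8.70% and 1.45%, where 5.44% and 3.90% of all tested genes were. Between the lines 2 were higher in NF-YAl and 3 lower, 2.90% and 4.35%, beside 1.74% and 2.86% of all tested genes. By the adjusted p alone, 15.9% of the 69 were higher and 5.80% lower in NF-YAl, beside 10% and 9.54% of all tested genes. In NF-YAs 14.5% were higher and 14.5% lower, beside 12.1% and 10.5%, and between the lines 5.80% and 8.70%, beside 4.7% and 6.25%. The medians over the 69 were -0.01, 0.07 and 0.06 (log2FC), beside 0.01, 0.00 and 0.02 over all tested genes.

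Among other ligands and ligand-like proteins, EGFL7, a secreted protein that can bind Notch receptors, was higher in both lines. It was at 0.755 to 1.10 CPM in Empty, 11.9 to 14.8 CPM in NF-YAl and 5.87 to 6.89 CPM in NF-YAs, with log2FC over Empty of 3.76 (SE 0.194) and 2.73 (SE 0.196). It was also a DEG between the lines (1.03), but fell just below the fold limit without NF-YAl replicate B (0.95) or NF-YAs replicate B (0.96). CNTN1, a neural adhesion protein described as a Notch ligand, was at 2.14 to 3.58 CPM in Empty, 6.86 to 9.07 CPM in NF-YAl and 30.4 to 31.9 CPM in NF-YAs. The log2FC was 1.33 in NF-YAl and 3.35 in NF-YAs, and -2.02 between the lines (SE 0.187, 0.187 and 0.173). DNER, a transmembrane protein with EGF-like repeats, was lower in NF-YAl than in both other groups, at 1.59 to 2.09 CPM against 5.16 to 6.52 CPM in Empty and 4.68 to 5.99 CPM in NF-YAs. Its log2FC was -1.60 against Empty and -1.53 against NF-YAs, both tested directly. DLK2, a Delta-like protein without the receptor-binding domain of the classic ligands, was a DEG between the lines (1.37, SE 0.201, adjusted p = 0.000646) and not over Empty (0.79 and -0.58).

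In the list of receptor glycosylation, LFNG, the Fringe enzyme that adds sugars to Notch EGF repeats and so tunes which ligand binds, was at 1.27 to 1.89 CPM in Empty, 5.83 to 8.96 CPM in NF-YAl and 3.61 to 4.23 CPM in NF-YAs. It was the 1 DEG of 6 genes, with log2FC of 2.19 (adjusted p = 2.30e-05, SE 0.222) and 1.25 (adjusted p = 0.00113, SE 0.227). In the list of ligand ubiquitylation, NEURL1, a ubiquitin ligase for ligands, was a DEG in NF-YAl (2.0, SE 0.417, adjusted p = 0.00318). NF-YAl replicate A was at 5.89 CPM and the highest NF-YAl library at 25.8, against 3.90 to 5.21 in Empty. The call was lost without any 1 of the Empty libraries (adjusted p = 0.0143, 0.0137 and 0.0192 without A, B and C) or without NF-YAl replicate B (0.0159). NEURL1 was at 8.99 to 14.4 CPM in NF-YAs, above all Empty libraries and above NF-YAl replicate A. The log2FC over Empty there was 1.26 (adjusted p = 0.0339, SE 0.419) and was not called. Between the lines it was 0.74 (adjusted p = 0.201), also not called.

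None of the 8 tested genes for the cleavage proteases and none of the 8 tested genes of the nuclear activation complex was a DEG in any comparison. By the adjusted p alone, 2 of the protease genes were lower in NF-YAs, where 10.5% of all tested genes were lower. Of the activation complex 2 genes were higher in NF-YAl, where 10% of all tested genes were higher, and 3 were higher and 1 lower in NF-YAs, beside 12.1% and 10.5% of all tested genes. The higher ones were KAT2B (log2FC 0.92 in NF-YAl and 0.79 in NF-YAs) and MAML3 (0.74 and 0.69) in both lines and SNW1 (0.40) in NF-YAs. They are named after their values were seen. The lower one was RBPJ, the DNA-binding partner of all Notch receptors, which is named here after its values were seen. It was at 124 to 128 CPM in Empty, 77.5 to 112 CPM in NF-YAl and 67.6 to 84.7 CPM in NF-YAs. Its log2FC was -0.47 in NF-YAl (adjusted p = 0.0193, SE 0.134) and -0.74 in NF-YAs (adjusted p = 0.00120, SE 0.135). Among 13 corepressors, TLE2, of the Groucho family that HES proteins recruit, was the 1 DEG, higher in both lines with log2FC of 1.14 and 1.37 (SE 0.174 and 0.174).

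Among 14 genes for receptor turnover and cytoplasmic modulation, the DEGs were both of the Deltex family of ubiquitin ligases. DTX4 was at 0.587 to 0.795 CPM in Empty, 4.31 to 6.18 CPM in NF-YAl and 9.10 to 10.3 CPM in NF-YAs, with log2FC of 3.0 and 3.87 (SE 0.222 and 0.22). DTX1 had 76, 103 and 92 counts in the NF-YAs libraries, against 1 count over the 3 Empty libraries and 1 count in each NF-YAl library. Relative to the total counts, the ratio of NF-YAs to Empty was 360, with a 95% exact counting interval from 64.1 to 14270, which covers counting error only. It was a DEG in NF-YAs against Empty and between the lines (adjusted p = 5.91e-07 and 5.78e-06). Among 8 other target genes, of which 5 were tested, NRARP, a target that encodes a feedback inhibitor of the Notch complex, was lower in both lines. It was at 11.5 to 15.7 CPM in Empty, 5.30 to 7.56 CPM in NF-YAl and 3.18 to 4.98 CPM in NF-YAs, with log2FC of -1.17 (adjusted p = 0.000796, SE 0.197) and -1.82 (adjusted p = 4.0e-05, SE 0.206). NRARP and HES1, both known Notch targets, thus had opposite signs over Empty in both lines. The other tested genes of this list were not DEGs. HES2 passed the adjusted p alone, higher in NF-YAl than in Empty (log2FC 0.89, adjusted p = 7.17e-05) and in NF-YAs (0.72, adjusted p = 0.000688). In NF-YAs against Empty HES2 did not pass (0.17). Over Empty, HES6 (0.49 in NF-YAl and 0.45 in NF-YAs), HES4 (-0.29 and -0.53) and HEYL (0.74 and 0.79, at most 11 counts in a library) did not pass. HEY2 was listed at 0 in every library, and HES5 and HES7 had too few counts for a test, at most 3 and 9 in a library.

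**Figure D3:**
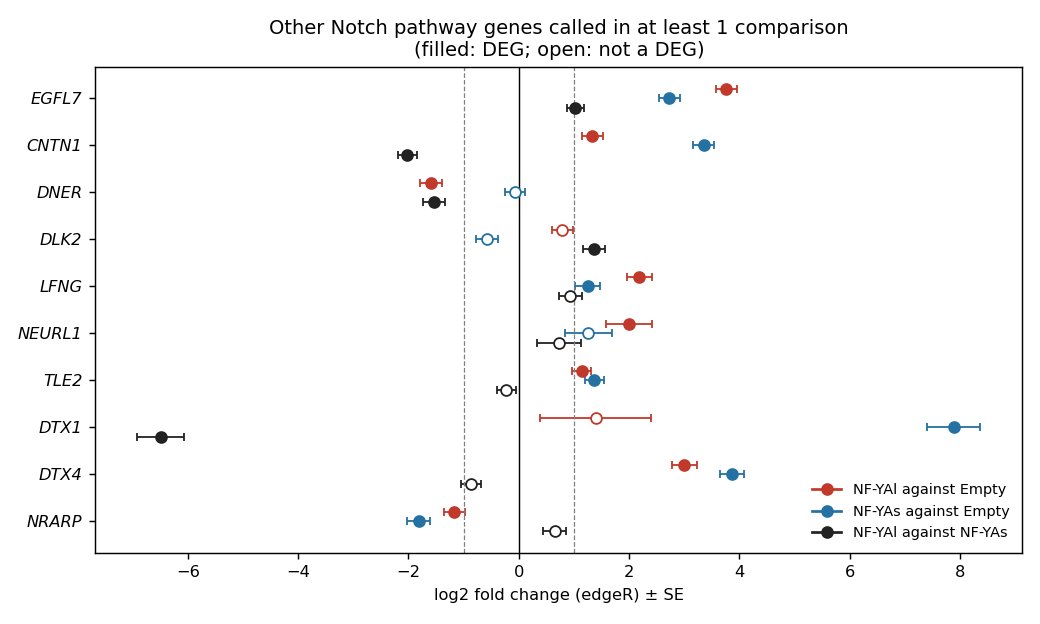
The log2FC ± SE of the 10 other pathway genes that were DEGs in at least 1 comparison, in red for NF-YAl against Empty, in blue for NF-YAs against Empty and in black for NF-YAl against NF-YAs. Filled symbols are DEGs; EGFL7, CNTN1, LFNG, TLE2 and DTX4 lay above 1 and NRARP below -1 in both lines, and the value of DTX1 against Empty rests on 1 Empty count.

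The genes whose levels ran most like those of JAG2 and NOTCH3, the 2 DEG members, were found by Pearson correlation of log2 CPM over the 9 libraries among 15149 genes. These correlations are a description, since the libraries fall into 3 groups. For JAG2 they were GNAI1 (r = 0.994), TXNDC5 (0.987) and ZDBF2 (0.984), each highest in NF-YAl and lowest in NF-YAs. The range of these genes was smaller than that of JAG2, with GNAI1 at 15.8 ± 0.889, 23.6 ± 2.28 and 9.32 ± 0.374 CPM in Empty, NF-YAl and NF-YAs (SD, n = 3). For NOTCH3 they were NETO1 (r = 0.982), SNX1 (0.981) and WDR19 (0.978).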

How the data were processed

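RNA was measured in 9 libraries of PC3 MTSs, 3 each for Empty, NF-YAl and NF-YAs, grouped by the sample labels. The authors aligned reads to human RefSeq transcripts of GRCh37/hg19 with Bowtie2 within RSEM. They deposited expected counts, RSEM's unnormalized estimates that share out multiply aligned reads, and TPM, scaled to the same total per library, for genes and transcripts. The deposited percent is a transcript's share of its gene's TPM, and the deposited lengths are in nt. Any murine transgene reads that aligned were counted with the human gene.

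The test was edgeR 4.0.16 (R 4.3.3) on rounded gene expected counts (filterByExpr, TMM, 1 quasi-likelihood fit of the 3 groups, Benjamini-Hochberg adjustment over 17108 genes). The study's DEG limits were kept, a |log2FC| above 1 with adjusted p under 0.01, though the study used DESeq2. Total expected counts were 18076979 to 27163976 per library. Replicate libraries differed by more than counting error (chi-square per gene 6.39 to 92.7), so none was counted as a repeat. The procedure was tested on simulated data. Alternatives were DESeq2 1.42.0, relative log expression scaling, other filters, 2 groups only, the replicate letter as a block, limma 3.58.1 on log2(TPM + 0.1) and log2(TPM + 1), omission of each library, and a limit of 0.05 on the adjusted p. A median-centred TPM fit was added after seeing the data.

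The members and gene lists were chosen with earlier results of these data known. Named were all members, NFYA, up to 4 DEGs per pathway list with at least 1 CPM in the highest group, and the 3 genes most correlated with each of the 2 DEG members. Markers were used as sums and counts, with those near 0 named. The markers KDR, ROBO4, PECAM1, VWF, CSPG4, MCAM, ACTA2, RGS5, PDGFRB, KRT8, KRT18, KRT19, VIM, EPCAM and CDH1 were named after their values were seen. The same holds for the pathway genes RBPJ, MAML3, KAT2B, SNW1, HES2, HES4, HES6 and HEYL. Gene positions came from GENCODE on GRCh37, and promoters from RefSeq on GRCh38.p14. Figures were drawn with matplotlib 3.10.9.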

Additional observations from a re-analysis of the deposited data

Results flagged for a closer look

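The responses of 3 members over Empty differed between NF-YAl and NF-YAs by the direct test of both lines, in edgeR's quasi-likelihood test with adjustment over all tested genes. For JAG2 the difference was 2.63 on the log2 scale (adjusted p = 1.32e-05), and all 3 NF-YAl libraries lay above and all 3 NF-YAs libraries below the Empty libraries. For HEY1 it was -0.66 (adjusted p = 0.00204) and for JAG1 -0.56 (adjusted p = 0.00362), with every NF-YAl library below every NF-YAs library in CPM. On uncentred TPM by limma with a pseudocount of 0.1, HEY1 was at -0.53 (adjusted p = 0.362) and JAG1 at -0.42 (adjusted p = 0.530), and neither passed, while JAG2 did (adjusted p = 4.18e-07). With each library centred on its median, HEY1 (-0.67, adjusted p = 0.00316 by limma) and JAG1 (-0.56, adjusted p = 0.00442 by limma) both passed. No group had more than 3 libraries, so single libraries were not tested for standing apart.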

How the results depend on the processing

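JAG2 was a DEG in all 3 comparisons under DESeq2, relative log expression scaling, both other filters, the fit of 2 groups and every left-out library. For the 9 tested members, 347 of the alternative log2FC values kept their direction and their side of the adjusted p, 40 fell short of it, 9 newly passed it and 9 changed sign. The DEG count in NF-YAl against Empty (2) was 3 with log2(TPM + 0.1), where HES1 was added, and 1, JAG2, with log2(TPM + 1), with median-centred TPM and with 2 groups only, and 1 to 2 with a library left out. The count past the adjusted p alone there (5) was 8 at an adjusted p under 0.05, 3 and 2 with log2(TPM + 0.1) and log2(TPM + 1), 1 with 2 groups only and 2 to 5 with a library left out. With DESeq2, the study's test, it was 7, where DLL4 (adjusted p = 0.00565 by DESeq2) and HEY1 (0.00951) were added. In NF-YAs against Empty, the DEG count (1) was 1 to 2 with a library left out, and 0 in both TPM fits by limma, where 4 members had an unadjusted p under 0.05. The count past the adjusted p alone there (3) was 0 in both TPM fits, 5 at an adjusted p under 0.05 and 5 with 2 groups only. Between NF-YAl and NF-YAs this count (3) was 1 in both TPM fits and 1 to 3 with a library left out. It was 4 with DESeq2, where NOTCH2 was added (adjusted p = 0.000642 by DESeq2). The causes were not tested, apart from TPM: it moved the median log2FC of all genes to 0.29 (0.1 added) and 0.22 (1 added) in NF-YAl against Empty, to 0.17 and 0.12 in NF-YAs against Empty and to 0.13 and 0.10 between the lines. With TPM the share of DEGs that were higher went from 57.6% to 78.4% and 75.7% in NF-YAl and from 58.3% to 71.2% and 69.1% in NF-YAs, and median-centring brought it to 52.3% and 57.1%.

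Signs changed only for uncalled values. JAG1 in NF-YAl against Empty was 0.047 in both TPM fits, below the shift of all genes. DLL4 in NF-YAs against Empty was -0.43 to 0.055 with a library left out, above 0 without Empty replicate C. Between the lines, NOTCH4 was -0.053 with median-centred TPM and -0.19 to 0.19 with a library left out, below 0 without NF-YAl replicate B or NF-YAs replicate C. HES1 was 0.018 and 0.020 in the TPM fits and -0.18 to 0.075 with a library left out, above 0 without NF-YAl replicate B. The difference in the NOTCH2 transcript share between NF-YAl and NF-YAs (3.08 percentage points) was 1.28 from expected counts. With the replicate letter as a replicate block, 2, 1 and 1 members were DEGs in the 3 comparisons and 5, 4 and 3 passed the adjusted p alone, with NOTCH4 added in NF-YAs against Empty (adjusted p = 0.00973). DEGs over all genes were then 905 higher and 642 lower in NF-YAl against Empty. The labels do not say that a letter marks a shared culture, and same-letter libraries had residual correlations of -0.0652 to 0.253. Counts of 24 to 137 for NOTCH3 and 1 to 6 for DLL1 limit the precision for these genes.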
